A study of Mus musculus with 9 samples.

Results

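The centrosome and centriolar satellite genes followed here were the rows of a cardiomyocyte count table whose symbol is Cep and a number (34 genes), together with 14 genes named one by one: Pcm1, Pcnt, Cdk5rap2, Plk4, Sass6, Nin, Ninl, Akap9, Cntrob, Ofd1, Bbs4, Tubg1, Tubgcp2 and Tubgcp3. These 48 genes of the 15824 in the table were chosen by name and function, with earlier results of these data known. RNA was sequenced from isolated heart muscle cells of CD-1 (ICR) mice at postnatal day 1 (P1), P14 and P56, with 3 libraries of rRNA-depleted total RNA at each age. Hearts were pooled for each library, 12 at P1 and 6 to 7 at P14 and at P56, and no genotype or treatment is given that separates the groups apart from age. The protocols in the labels describe whole-cell isolation from operated hearts as well as a sort of nuclei that carry Pcm1, and which of them applied to each library is not settled. If nuclei were sorted on Pcm1, the protein of 1 of the 48 genes also chose the material.

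The centrosome is built of a pair of centrioles, a surrounding pericentriolar matrix that holds the γ-tubulin rings from which microtubules grow, and appendages on the older centriole that anchor microtubules and seat the cilium. Centriolar satellites are granules, scaffolded by Pcm1, that carry proteins to and from the centrosome. In rodent heart muscle cells the centrosome is known to lose its integrity around birth, when pericentriolar proteins including Pcm1 and Pcnt move to the nuclear envelope, and these cells then largely stop dividing.

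Library totals ranged from 49190887 to 58538025 counts at P1, from 36619799 to 38878181 at P14, and from 45866453 to 49535917 at P56, and all 48 genes passed the filter on low counts. Levels are CPM, counts scaled to a common library size. Changes are log2 ratios ± standard error (SE), given by the quasi-likelihood test of edgeR, their p-values were adjusted by the Benjamini-Hochberg method over 15817 genes, and a gene is called higher or lower at an adjusted p under 0.05 (n = 3 libraries per age). The p-values measure the spread between pooled samples. Heart muscle markers were abundant in every library (12 markers, 53540 to 95790 CPM summed). Among markers of other cell types, summed endothelial markers were highest at P14, at 260.7 to 654.4 CPM against 82.3 to 115.9 at P1 and 45.6 to 112.7 at P56, and P14 replicate 1 held most. Summed fibroblast markers overlapped between P14 (221.6 to 819.8 CPM) and P1 (159.1 to 319.5). Leukocyte sums of 7.17 to 20.9 CPM at P14 lay above the P1 range of 3.39 to 5.08. Smooth muscle sums of 196.6 to 295.5 CPM at P14 lay just above the P1 range of 168.4 to 196.3. Summed epicardial markers were highest at P1 (37.5 to 39.8, against 16.9 to 30.4 at P14). Taken singly, however, 4 of the 5 epicardial markers were higher and 1 was lower at P14 than at P1 (median log2 change 2.64). The mean log2 CPM of all such markers, called the marker score, lay between 1.44 and 2.01 at P1, between 2.57 and 3.81 at P14, and between 0.66 and 1.75 at P56. All P14 scores lay above those of the other ages, so a model term for this score cannot be fully told apart from age. In such bulk libraries, fewer cells of a type and less RNA per cell cannot be told apart.

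Centrosome transcripts were mostly lower at P14 than at P1. Of the 48 genes, 36 fell and 4 rose, among them Pcnt, Cep85 and Cep68, and 8 did not pass the threshold. That is 75% lower, beside 27.5% of all 15817 genes called lower, and 8.33% higher, beside 28.4% of all genes. The median log2 change was -0.51 over the 48 genes and 0.00 over all genes tested. Most changes were moderate: 21 of the 48 stayed within 0.5 on the log2 scale and 8 reached 1 in either direction. In 37 genes every P14 library lay below every P1 library, and in 4 every P14 library lay above, beside 32.9% and 31% of all genes. The 48 genes together took at least 0.246% of all raw counts in the P1 libraries. Their raw share was at most 0.206% at P14 and at most 0.213% at P56. Summed as scaled CPM, they were lowest in the P14 libraries (1927.8, 1848.8 and 1933.2). The P56 sums (2214.8, 2311.2 and 2328.4) overlapped the P1 sums (2279.5, 2311.5 and 2229.5), so only P14 stood apart on that scale.

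**Figure D1:**
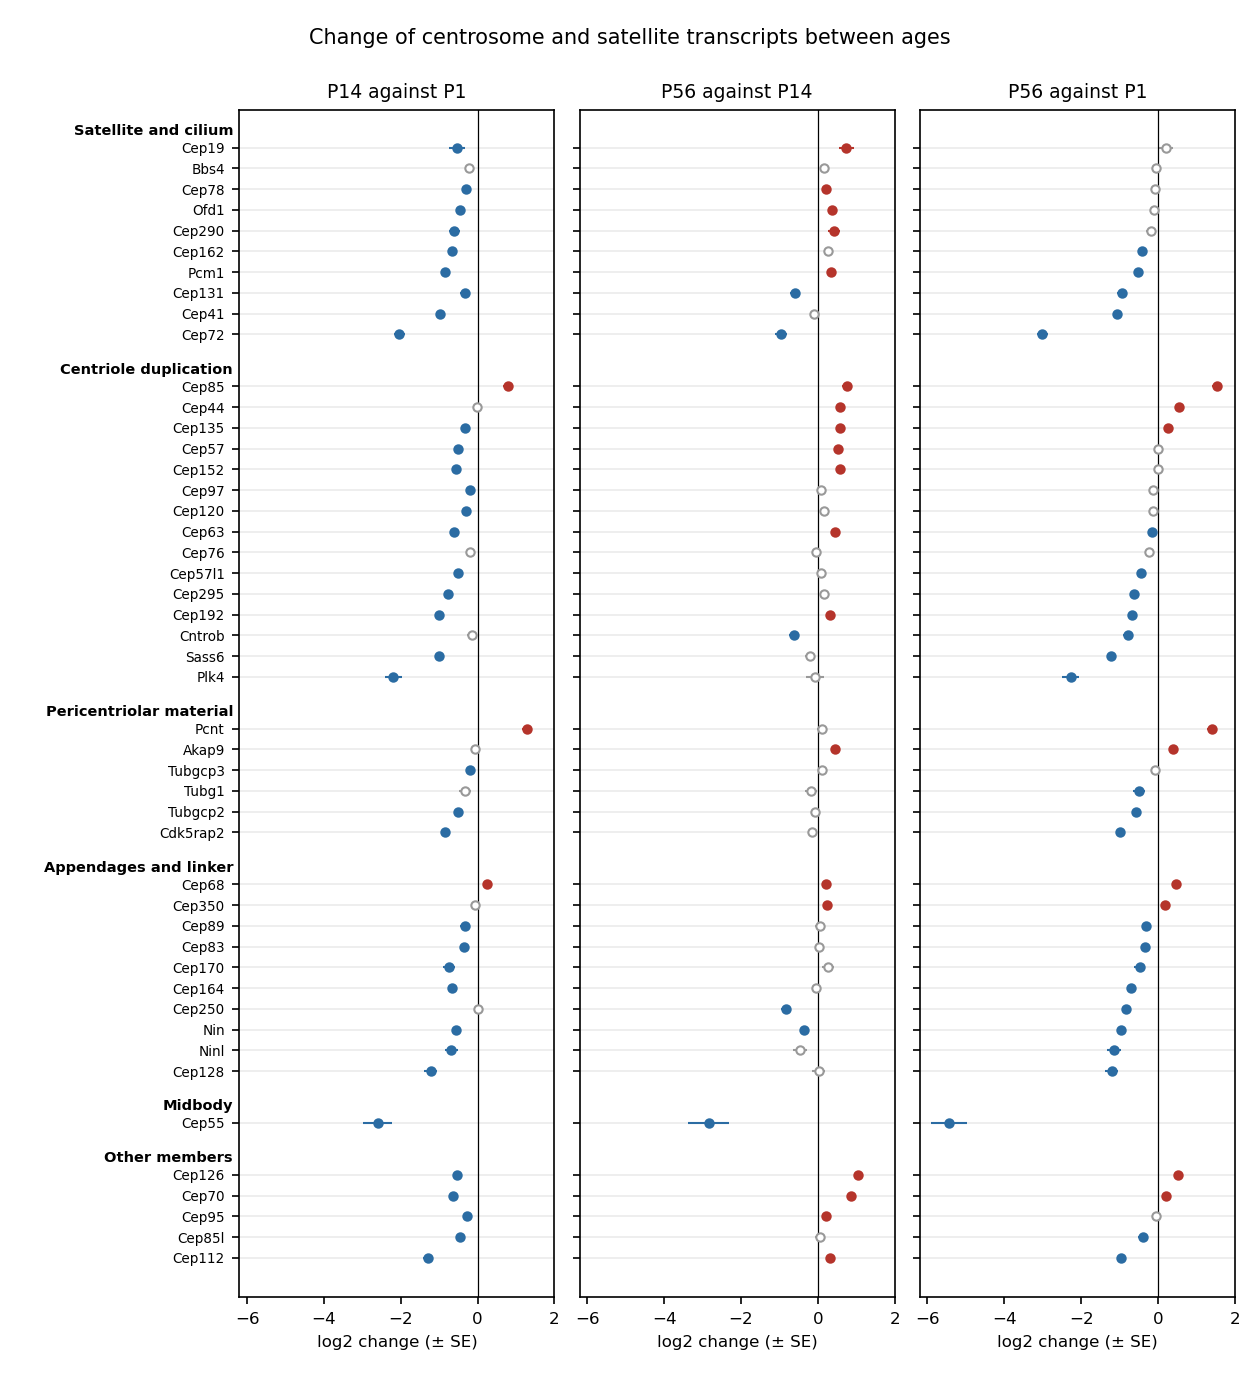
Log2 change ± SE of 47 of the 48 genes (rows, grouped by role) in the 3 comparisons of ages (n = 3 libraries per age). Filled red and blue points passed an adjusted p of 0.05 as higher or lower and open grey points did not. In the P14 against P1 column 36 points are blue and 3 are red, whereas in the P56 against P14 column 6 are blue and 19 are red.

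Among the 11 satellite and cilium genes, 9 fell between P1 and P14 (81.8%) and 1 rose (9.09%), beside 27.5% and 28.4% of all genes. Pcm1, the satellite scaffold, had the highest level per exonic length of the 48 genes at P1 (33.3 CPM per kilobase, followed by Cep85l at 17.4). It was counted at 242, 252 and 250 CPM in the P1 libraries, 147, 128 and 134 at P14, and 177, 169 and 174 at P56. The 3 ages did not overlap, with P14 lowest and P56 between the others. The log2 change was -0.86 ± 0.06 from P1 to P14 (adjusted p = 2.97e-06) and 0.34 ± 0.06 from P14 to P56 (adjusted p = 0.000967). With counts corrected for GC content the second change was 0.07 and was no longer called (adjusted p = 0.241), and the gap between P56 and P1 was -0.52 ± 0.06 (adjusted p = 3.86e-05) without that correction.

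Ofd1, a satellite and distal centriole protein needed for cilia, followed the same course at a lower level. Its libraries gave 22.4, 21.5 and 21.8 CPM at P1, 17.7, 15.1 and 14.6 at P14, and 21.2, 19.1 and 20.6 at P56, so that P14 lay apart while P56 stood just under P1. The change was -0.47 ± 0.09 in the first interval (adjusted p = 0.00138) and 0.36 ± 0.09 in the second (adjusted p = 0.00623, and 0.16 with GC correction, which was not called).

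Cep290, a component of the ciliary transition zone, gave 16.0 CPM in each P1 library, 12.8, 10.7 and 8.03 at P14, and 15.3, 13.8 and 13.2 at P56. The P14 libraries were the lowest and the most spread. The first change was -0.61 ± 0.14 (adjusted p = 0.00556). The later change of 0.42 ± 0.15 (adjusted p = 0.0307) lost its call without P14 replicate 2 or 3 or P56 replicate 1 or 2 (0.26 to 0.44) and with GC correction. Bbs4, a subunit of the BBSome that carries cargo in cilia, gave 8.84, 8.98 and 8.36 CPM at P1, 6.92, 7.54 and 7.92 at P14 and 7.68, 8.43 and 9.11 at P56. Its P56 libraries overlapped both other ages, and it passed the threshold in no comparison (adjusted p of 0.0765, 0.167 and 0.65).

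Cep72, a satellite protein that binds Pcm1, had a far larger change than the scaffold itself. It stood at 8.96, 8.85 and 9.33 CPM at P1, 2.58, 1.89 and 2.10 at P14, and 0.997, 1.15 and 1.23 at P56. The ages were in a falling order with no overlap. The log2 change was -2.04 ± 0.14 by P14 (adjusted p = 2.38e-06) and -3.01 ± 0.15 by P56 (adjusted p = 1.13e-07). Cep41, which takes part in tubulin modification in cilia, fell by 0.97 on the log2 scale by P14 and gave -0.09 ± 0.11 afterwards. Cep162, which marks the axoneme end of the centriole, fell by 0.67 ± 0.11, and Cep78, needed for cilia, by 0.30 ± 0.08. Cep131, a satellite partner of Pcm1, was lower again at P56 than at P14 (-0.60 ± 0.12, adjusted p = 0.00207, but -0.13 and not called with GC correction). Smaller changes in this group lay near the threshold. The P14 calls of Cep131 (-0.34, adjusted p = 0.0307) and Cep19 (-0.54, adjusted p = 0.0377) were each lost without P1 replicate 1 (-0.31 and -0.46). That of Cep131 was also lost without P1 replicate 2 or P14 replicate 1 or 2. That of Cep19 was also lost without P1 replicate 2, P14 replicate 1 or 2, or P56 replicate 2. Both were lost with the marker score in the model (-0.27 and -0.68). With GC correction Cep19 lost its call (-0.48) and Cep131 kept it (-0.71).

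The 15 genes of centriole duplication and assembly gave 11 falls (73.3%) and 1 rise (6.67%) by P14, beside 27.5% and 28.4% of all genes. Plk4, the kinase that starts centriole duplication, was the lowest of the 48 per exonic length at P1 (0.953 CPM per kilobase). Its libraries gave 7.08, 5.74 and 6.77 CPM at P1, 1.92, 1.30 and 1.05 at P14, and 1.56, 1.10 and 1.38 at P56. All P1 libraries lay above all later ones, and the later ages overlapped. The change was -2.20 ± 0.22 in the first interval (adjusted p = 2.86e-05) and -0.08 ± 0.23 in the second (adjusted p = 0.791).

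Sass6, which forms the cartwheel at the base of a new centriole, gave 9.88, 10.8 and 10.6 CPM at P1, 5.98, 4.70 and 4.88 at P14, and 4.26, 4.68 and 4.52 at P56. It too was set apart at P1, with P56 just below P14. The change was -1.01 ± 0.11 by P14 (adjusted p = 6.05e-05) and -1.22 ± 0.11 by P56 (adjusted p = 8.38e-06). An antisense gene shares 1502 of its exonic bases (24.54%), and Trmt13, also on the other strand, shares 389. Part of its counts is therefore uncertain where counting ignored the strand.

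Transcripts for proteins that recruit Plk4 to the centriole wall fell by P14 and rose again by P56. Cep192 fell by 1.00 on the log2 scale, and Cep152 and Cep63 by 0.57 and 0.61. Between P14 and P56 these genes rose by 0.33 ± 0.09, 0.57 ± 0.10 and 0.44 ± 0.06. Cep152 libraries at P1 (21.6, 23.2 and 21.3 CPM) and P56 (22.7, 22.3 and 21.0 CPM) overlapped, with P14 lower (17.0, 12.9 and 14.5 CPM). With GC correction the later rises of Cep192 and Cep63 (0.15 for both) were not called, and that of Cep63 was lost once the marker score was added to the model (0.34). The cartwheel-linked gene Cep135 dipped by 0.33 and then rose by 0.59 ± 0.07 (adjusted p = 0.000136), to 0.26 ± 0.07 above P1 (adjusted p = 0.00984). Cep295, needed for a new centriole to mature into a centrosome, fell by 0.78 ± 0.10 and gave 0.15 ± 0.10 afterwards. An antisense gene shares 10.87% of its exonic bases, and further genes share smaller parts. Cep57 and its paralog Cep57l1 both fell by 0.52 and parted afterwards: Cep57 rose by 0.52 ± 0.07, back to its P1 level (34.2 to 35.2 CPM at both ages), while Cep57l1 gave 0.09 ± 0.06. The elongation factor Cep120 fell by 0.30 ± 0.07, Cep97, which caps the centriole with Cp110, fell by 0.20 ± 0.07, and Cep76, which limits repeated duplication, gave -0.19 ± 0.10 and was not called. The call of Cep97 was lost without P1 replicate 2 or 3 or P14 replicate 3 (-0.18 to -0.20) and was at 0.00 with GC correction.

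Cep85 went the other way. In human cells its protein binds STIL and helps to activate PLK4. Its level was 61.2, 63.1 and 62.2 CPM at P1, 88.5, 113 and 120 at P14, and 153, 190 and 197 at P56. Each age lay wholly above the one before. The log2 change was 0.78 ± 0.12 by P14 (adjusted p = 0.000433), 0.75 ± 0.12 from P14 to P56 (adjusted p = 0.00056) and 1.53 ± 0.12 over the whole span (adjusted p = 2.76e-06). Once the marker score was added to the model the second step was 0.12 and not called. Cep44, a protein of the centriole lumen, gave -0.02 ± 0.06 in the first interval and rose by 0.58 ± 0.06 in the second (adjusted p = 6.88e-05). Cntrob, which encodes the daughter-centriole protein centrobin, gave -0.15 ± 0.13 and then fell by 0.63 ± 0.13 (adjusted p = 0.00267).

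Cep55 had the largest change of the 48 genes over the whole span. Its protein leaves the centrosome in mitosis and recruits the abscission machinery to the midbody, the bridge between dividing cells. It gave 5.53, 5.52 and 6.03 CPM at P1 and 0.92, 0.973 and 0.91 at P14. At P56 it was counted 2, 14 and 1 times, which is 0.0453, 0.321 and 0.0223 CPM, so P56 replicate 2 carried most of what was left. The log2 change was -2.60 ± 0.37 by P14 (adjusted p = 0.000261) and -5.44 ± 0.47 by P56 (adjusted p = 5.19e-06). The step from P14 to P56 was -2.84 ± 0.53, and -4.69 without P56 replicate 2. Genes of cycling cells fell in the same interval: 19 of 20 were lower at P14 (95%, beside 27.5% of all genes), among them Mki67. The Mki67 libraries held at least 49.0 CPM at P1, at most 9.74 at P14 and at most 0.918 at P56. The mean log2 CPM of these 20 genes was at least 3.21 at P1, between 0.394 and 1.334 at P14 and at most -1.05 at P56, and their part in the falls of Cep55, Plk4, Sass6 and Cep72 was not tested.

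**Figure D2:**
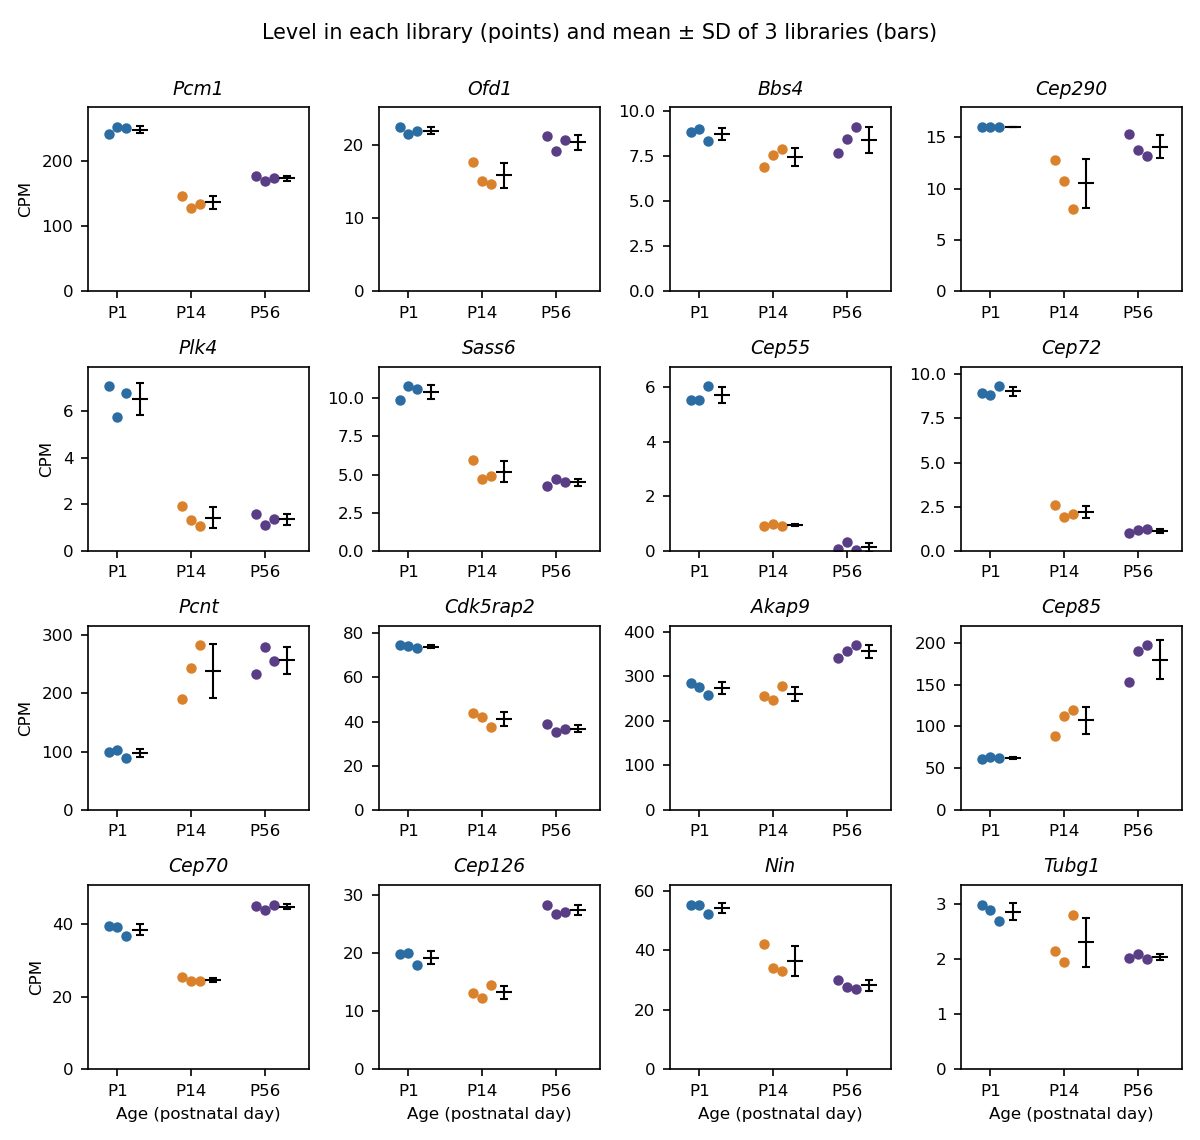
CPM of 16 of the 48 genes in each library (points) against age, with mean ± SD of 3 libraries (bars); each panel has its own scale from 0. Plk4, Sass6, Cep55, Cep72 and Cdk5rap2 are highest at P1, Pcnt and Cep85 are lowest at P1, and Pcm1, Ofd1, Cep290, Cep70 and Cep126 are lowest at P14.

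Promoters of the members were searched for letters that occur in promoters of genes turned on late in the cell cycle, because several members with large falls have that role. RefSeq windows from 250 bases before to 50 after the start (GRCm38.p6) were matched by symbol for 39 of the 48 genes. The cell cycle homology region letters TTTGAA, on either strand, stood in 14 of 48 member windows (29.2%), beside 17.9% of all 32851 windows. Windows of a gene can overlap, and the 2 of Cep55 hold the same match. Counted by gene, 12 members held a match and 27 did not, beside 1605 and 9375 of all genes with a window. The 12 were Cdk5rap2, Cep112, Cep162, Cep164, Cep170, Cep295, Cep55, Cep57l1, Cep72, Cep89, Nin and Sass6. The windows of 4 of these (the first of 2 for Cep55) are shown with the match in capitals (TTCAAA is the same match read on the other strand), beside that of Cep85, which rose and holds no match. Plk4, Cep57 and Cep70, which fell by P14, hold no match either. The Plk4 window ends at chr3:40800000, before the start of the gene in the GENCODE annotation (40800019). Bases just after that start were therefore not searched for Plk4. The same holds for Pcnt, counted among the genes without a match. Its window, on the minus strand, ends at chr10:76442863, before the annotated start (76442786). Each window shown is written in the direction of transcription.
Cep55, plus strand, chr19:38054734-38055033: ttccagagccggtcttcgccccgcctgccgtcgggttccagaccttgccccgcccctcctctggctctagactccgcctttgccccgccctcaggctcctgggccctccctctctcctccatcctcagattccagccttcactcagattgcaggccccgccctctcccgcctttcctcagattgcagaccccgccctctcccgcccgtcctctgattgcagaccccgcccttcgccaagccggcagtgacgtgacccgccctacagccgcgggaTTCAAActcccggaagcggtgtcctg
Cep72, minus strand, chr13:74062236-74062535: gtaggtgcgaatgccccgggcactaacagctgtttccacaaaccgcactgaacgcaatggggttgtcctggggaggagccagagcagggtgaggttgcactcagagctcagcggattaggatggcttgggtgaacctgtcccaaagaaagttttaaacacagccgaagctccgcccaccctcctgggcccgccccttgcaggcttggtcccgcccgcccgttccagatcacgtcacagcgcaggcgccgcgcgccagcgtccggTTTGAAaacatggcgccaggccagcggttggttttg
Cdk5rap2, minus strand, chr4:70410386-70410685: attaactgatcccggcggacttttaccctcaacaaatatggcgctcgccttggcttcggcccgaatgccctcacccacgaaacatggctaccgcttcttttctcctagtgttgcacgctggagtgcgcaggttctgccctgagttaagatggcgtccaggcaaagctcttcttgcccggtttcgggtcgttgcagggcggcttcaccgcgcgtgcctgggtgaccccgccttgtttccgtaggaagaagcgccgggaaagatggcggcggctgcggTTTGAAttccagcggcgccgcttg
Sass6, plus strand, chr3:116594708-116595007: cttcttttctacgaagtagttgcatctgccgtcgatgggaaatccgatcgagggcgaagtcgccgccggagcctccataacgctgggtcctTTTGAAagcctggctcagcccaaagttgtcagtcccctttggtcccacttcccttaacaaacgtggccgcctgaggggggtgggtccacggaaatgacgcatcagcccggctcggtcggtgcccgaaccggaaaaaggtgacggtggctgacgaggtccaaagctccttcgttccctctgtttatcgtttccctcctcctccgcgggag
Cep85, minus strand, chr4:134187036-134187335: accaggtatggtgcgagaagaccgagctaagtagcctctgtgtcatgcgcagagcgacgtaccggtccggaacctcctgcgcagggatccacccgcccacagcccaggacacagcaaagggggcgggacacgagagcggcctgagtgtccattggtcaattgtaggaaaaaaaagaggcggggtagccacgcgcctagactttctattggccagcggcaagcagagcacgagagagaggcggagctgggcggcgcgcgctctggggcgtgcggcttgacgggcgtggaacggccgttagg
In the windows shown, the match begins 25 bases after the start in Cep55, 15 in Cep72 and 27 in Cdk5rap2, and at -159 in Sass6. In the second Cep55 window, which has a later start, the same match begins at -33. All 12 genes with a match were lower at P14 and at P56 than at P1, whereas of the 27 without one 20 were lower at P14 and 9 (33.3%) at P56. Over all genes with a window, 35.2% of those with a match and 31.9% of those without were lower at P56 than at P1, and 31.7% and 27.2% at P14. The letters were chosen with the falls of the members known, and both comparisons share the P1 libraries. Members without a window are in neither group. Whether the match bears on the falls was not tested. The P56 calls of 2 of the 12 were lost in some fits: that of Cep89 (-0.30) without P1 replicate 1 or 3, P14 replicate 2 or P56 replicate 1 or 3, or with GC correction and the replicate block together, and that of Cep170 (-0.48) without P1 replicate 3 or P56 replicate 2 or 3. Other letters were no more than described: CCAAT stood in 20 of 48 member windows (41.7%, beside 37.4% of all), any of TTTGGCGC, TTTCCCGC, TTTCGCGC and TTTGCCGC, the letters bound by E2F factors, in 3 (2.3% of all), and the NRF1 motif in 1 (1.0% of all). Both strands were searched, and no matches of different motifs overlapped.

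The 6 genes of the pericentriolar matrix and microtubule nucleation did not move together: 3 fell by P14 and Pcnt rose. That is 50% and 16.7%, beside 27.5% and 28.4% of all genes. Pcnt encodes pericentrin, the scaffold of the matrix. Its libraries gave 99.6, 102 and 89.7 CPM at P1, 190, 243 and 282 at P14, and 233, 280 and 256 at P56. P1 lay below all other libraries, and P14 and P56 overlapped, with P14 replicate 1, which held most markers of other cells, the lowest of the 6. The log2 change was 1.29 ± 0.13 by P14 (adjusted p = 3.35e-05), the largest rise of the 48 in that interval, and P56 likewise stood above P1 (adjusted p = 9.47e-06). Between P14 and P56 it gave 0.11 ± 0.13 (adjusted p = 0.514), which became 0.36 with GC correction and -0.53 once the marker score was added to the model, each past the threshold.

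Cdk5rap2, which binds pericentrin and activates the γ-tubulin ring, went down while Pcnt went up. It gave 74.5, 74.3 and 73.2 CPM at P1, 43.7, 41.9 and 37.6 at P14, and 38.7, 35.4 and 36.5 at P56. All later libraries lay below P1, and P14 and P56 overlapped in 1 library. The change was -0.85 ± 0.07 by P14 (adjusted p = 5.92e-06) and it fell by 1.00 ± 0.07 by P56 (adjusted p = 8.25e-07). The window shown above holds its TTTGAA match.

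Akap9, a large anchoring protein of the centrosome and the Golgi, gave 285, 276 and 258 CPM at P1, 255, 247 and 278 at P14, and 341, 357 and 369 at P56. The first 2 ages overlapped and P56 lay above both. The change was -0.07 ± 0.07 in the first interval (adjusted p = 0.377) and 0.45 ± 0.07 in the second (adjusted p = 0.000324, and 0.23 and not called once the marker score was added to the model). Tubg1, γ-tubulin itself, was weakly counted, at 2.99, 2.90 and 2.70 CPM at P1, 2.15, 1.95 and 2.81 at P14, and 2.02, 2.09 and 2.00 at P56. P14 overlapped both other ages, and of the 3 comparisons only P56 against P1 was called (-0.49 ± 0.16, adjusted p = 0.0196), a call that was lost without P1 replicate 1 or 2 or P56 replicate 3 (-0.46 to -0.48). The ring subunits Tubgcp2 and Tubgcp3 fell by 0.50 and 0.19 by P14, the latter not without P1 replicate 1 (-0.18) and not with GC correction (-0.09). Tubgcp2 remained lower at P56 (-0.57 ± 0.06), whereas Tubgcp3 gave -0.07 ± 0.05 there.

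Of 10 genes of the appendages, the linker and the centriole wall, 7 fell by P14 and 1 rose. That is 70% and 10%, beside 27.5% and 28.4% of all genes. Cep128, a subdistal appendage protein, had the largest fall of this group, from 72.7, 75.8 and 74.1 CPM at P1 to 40.4, 30.8 and 24.3 at P14 and 35.7, 26.6 and 34.7 at P56. The later ages overlapped and lay below P1 (-1.22 ± 0.17 by P14, adjusted p = 0.000218). Nin, which encodes ninein and anchors microtubules at the same appendages, gave 55.2, 55.4 and 52.3 CPM at P1, 42.3, 34.1 and 32.9 at P14, and 30.1, 27.5 and 26.9 at P56. Its ages fell in order without overlap, by 0.57 ± 0.10 and then 0.37 ± 0.10 (adjusted p = 0.000698 and 0.00836), though the second step was 0.01 once the marker score was added to the model.

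Distal appendage genes, which dock the centriole at the membrane, also fell by P14: Cep164 by 0.67 ± 0.09, Cep83 by 0.36 ± 0.09 and Cep89 by 0.34 ± 0.11. The call of Cep83 was lost with GC correction (-0.14). The call of Cep89 at P14 was lost without P1 replicate 1 or 3 or P14 replicate 2 (-0.29 to -0.35). The linker genes that hold the pair of centrioles together differed from these. Cep250, the core linker protein, gave 11.1, 12.3 and 10.5 CPM at P1, 12.7, 11.7 and 9.93 at P14, and 6.59, 6.68 and 5.90 at P56, so only P56 stood apart (-0.84 ± 0.12 against P14, adjusted p = 0.000245). Another gene shares 11.08% of its exonic bases, and once the marker score was added to the model its fall was -0.53 and not called. Cep68, its partner, was 0.24 ± 0.08 higher at P14 and 0.46 ± 0.08 higher at P56 than at P1 (adjusted p = 0.0329 and 0.000847). The P14 call was lost without P1 replicate 1 or 3 or P14 replicate 2 or 3 (0.21 to 0.25). The subdistal protein Cep170 and the ninein-like gene Ninl fell by 0.74 ± 0.15 and 0.68 ± 0.18 by P14, and Cep350, which stabilises centrioles, gave -0.06 ± 0.06 and then rose by 0.23 ± 0.06 (adjusted p = 0.00855; 0.10 and not called with GC correction).

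The other 5 members, Cep112, Cep126, Cep70, Cep85l and Cep95, all fell by P14 (100%, beside 27.5% of all genes). Cep112 fell the most of them, from 76.7, 79.0 and 77.0 CPM to 37.8, 29.4 and 27.6 (-1.30 ± 0.11, adjusted p = 9.42e-06), and was at 43.2, 38.4 and 37.9 at P56. Its P56 libraries lay just above those of P14. Cep70, which binds γ-tubulin, gave 39.4, 39.2 and 36.7 CPM at P1, 25.3, 24.3 and 24.3 at P14, and 45.1, 44.0 and 45.4 at P56, with no overlap between ages. Cep126 gave 19.8, 20.0 and 17.9, then 13.1, 12.3 and 14.5, then 28.4, 26.8 and 27.2 CPM. Both ended above their P1 level, by 0.22 ± 0.06 and 0.51 ± 0.08 (adjusted p = 0.00627 and 0.000393), though with GC correction that of Cep70 was 0.14 and not called (adjusted p = 0.0621). The P1 to P14 fall of Cep95 (-0.27) was lost without P1 replicate 2 (-0.24), and with GC correction or the marker score. Cep85l, which fell by 0.45 ± 0.11, shares exonic bases with Pln on the other strand, a gene highly expressed in heart muscle, so its level is uncertain.

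From P14 to P56 the direction of called genes turned. Of the 48 genes, 19 rose, 6 fell (Cep55, Cep72, Cep250, Cntrob, Cep131 and Nin) and 23 did not pass, with P14 shared with the comparison above. That is 39.6% higher, beside 27.5% of all genes, and 12.5% lower, beside 28.5% of all genes. The median log2 change was 0.13 over the 48 and -0.02 over all genes tested. Cep126 (1.05 ± 0.08), Cep70 (0.86 ± 0.06), Cep85 (0.75 ± 0.12) and Cep19 (0.74 ± 0.20) had the largest rises. Libraries did not overlap in 20 genes upward and 8 downward, beside 30.2% and 29.3% of all genes. This split moved with the fit: GC correction gave 12 higher (25%) and 9 lower (18.8%), beside 23.7% and 27% of all genes in that fit, so the share of rises was then near that of all genes. The marker score as a term gave 12 higher and 3 lower (6.25%), beside 15.4% and 14.6% of all genes. Cep57, Cep70, Cep126, Cep135, Cep152, Cep44, Cntrob and Cep55 kept their call in every alternative fit, 8 of the 25 called.

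Over the whole span, 26 of the 48 genes were lower at P56 than at P1 and 9 were higher. That is 54.2%, beside 31.7% of all genes called lower, and 18.8%, beside 30.9% called higher. The median was -0.31, and -0.03 over all genes. Of the appendage and linker genes 8 of 10 were lower, and of the satellite and cilium genes 5 of 11. The largest falls were those of Cep55, Cep72, Plk4 and Sass6, and the largest rises were those of Cep85, Pcnt, Cep44 (0.55 ± 0.06) and Cep126. In 33 genes the P56 libraries lay wholly below those of P1, and in 9 wholly above, beside 37.1% and 35% of all genes. Of the 35 calls, 29 held in every alternative.

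The change from P14 to P56 minus that from P1 to P14 tests whether the intervals differ. It was above 0 past the threshold in 31 of the 48 genes and below 0 in 3, among them Pcnt and Cep250, beside 24.1% and 26% of all genes. Plk4 had the largest value (2.12 ± 0.40, adjusted p = 0.002), followed by Cep112 (1.63 ± 0.19, adjusted p = 0.00016), Cep126 and Cep70. Pcnt had the lowest (-1.19 ± 0.22, adjusted p = 0.00178). The value of Cep250 (-0.86) was not called with GC correction (-0.26) or with the marker score as a term (-0.32). Of the 34 calls, 16 held in every alternative. With the marker score as a term the 31 became 20 (41.7%), beside 15.6% of all genes in that fit. Cep55 was at -0.23 and not called, but at -2.08 and called without P56 replicate 2.

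Taking the first and second interval together, 14 of the 48 genes fell and then rose (29.2%, beside 8.91% of all genes) and 18 fell with no later call (37.5%, beside 11.4%). The 14 were Cep135, Cep152, Cep192, Cep57, Cep63, Cep112, Cep126, Cep70, Cep95, Cep19, Cep290, Cep78, Ofd1 and Pcm1. With GC correction the later rises of Cep112 (0.15), Cep192 (0.15), Cep290 (0.09), Cep63 (0.15), Cep95 (0.07), Ofd1 (0.16) and Pcm1 (0.07) were not called. Nor were the first falls of Cep95 (-0.12) and Cep19 (-0.48). The share of all genes with this pattern was not counted in that fit. Cep55, Cep72, Cep131 and Nin fell in both intervals, and Cep85 and Cep68 rose in both. Some of these later calls rest on little: those of Cep78 (0.21), Cep95 (0.21) and Cep68 (0.22) were each lost in 8 of the 9 fits that leave out a library, the exception being P14 replicate 2 for Cep78 and P56 replicate 1 for Cep95 and Cep68 (0.15 to 0.23), and that of Cep112 (0.33) without P14 replicate 2 or 3 or P56 replicate 1 (0.25 to 0.28). By mean level, P1 was the highest age for 36 genes. Cep76, Tubg1 and Bbs4 passed in neither interval, and by the test for any difference among ages 46 of the 48 passed, beside 78% of all genes.

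Markers of other cells and base composition moved with age as well. Of 47 markers of fibroblasts, endothelium, leukocytes, smooth muscle and epicardium, 36 were higher and 4 lower at P14 than at P1 (median 1.96), and 35 were lower at P56 than at P14 (median -2.25), so most of them were higher at P14 than at P1, and most were lower again at P56. With the marker score as a term 29 of the 48 were lower at P14 than at P1 and 4 higher, beside 24.5% and 24.3% of all genes in that fit. The median GC content of the longest transcript was 46.34% for the 48 genes and 49.18% for all genes. In 5 bins of genes of equal size, from the poorest in GC to the richest, the median change of all genes from P14 to P56 ran 0.26, 0.14, 0.03, -0.18 and -0.40, and from P1 to P14 it ran -0.20, -0.12, -0.02, 0.13 and 0.27. The 48 genes were spread as 16, 14, 7, 5 and 6 over these bins. Of the rises from P14 to P56, 14 were in the 2 poorest bins and none in the richest. With GC correction 33 of the 48 were lower and 3 higher at P14 than at P1, beside 25.8% and 28.8% of all genes.

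**Figure D3:**
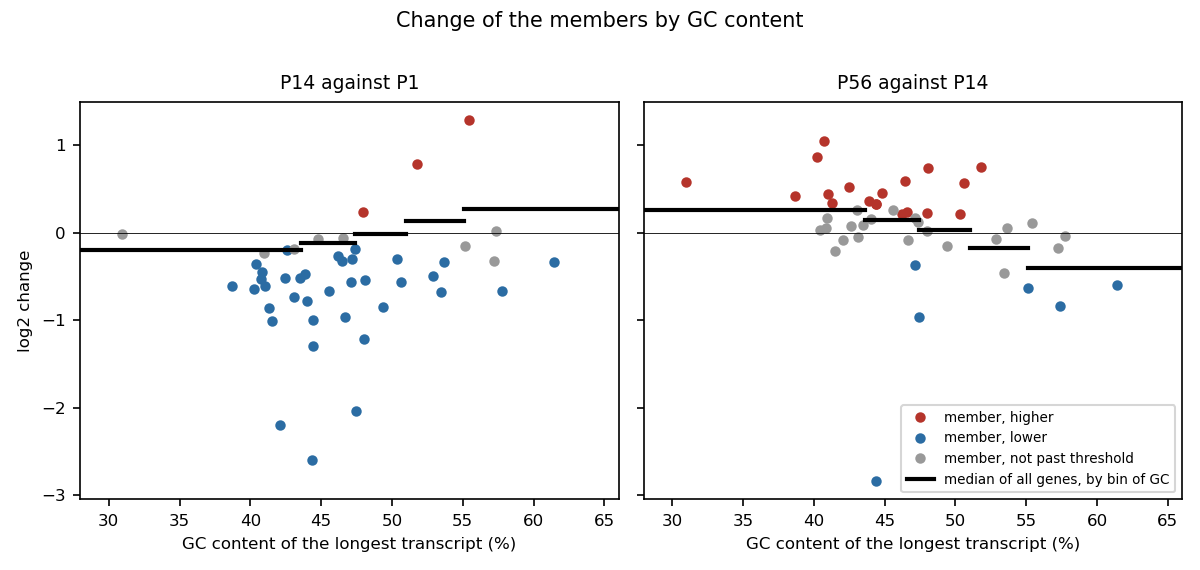
Log2 change of 47 of the 48 genes (points) against the GC content of their longest transcript, for P14 against P1 and P56 against P14; black lines are medians of all genes in each of 5 bins of GC content. In the second panel the red points (higher) lie mostly at low GC, where the median of all genes is 0.26, and 3 of the 6 blue points (lower) lie in the richest bin, where it is -0.40.

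Related genes outside the 48 gave the following. Of 32 other centriole and centrosome genes, 16 were lower (50%) and 3 higher (9.38%) at P14 than at P1, beside 27.5% and 28.4% of all genes. Stil, the partner of Plk4 and Sass6 in centriole assembly, went from 10.4, 11.2 and 11.0 CPM at P1 to 2.33, 1.32 and 0.966 at P14 and 0.294, 0.367 and 0.111 at P56, with no overlap. Its fall of 2.81 by P14 was larger than those of Nek2 (-2.33) and Aurka (-2.07), kinases of mitotic entry, while Tubd1, which encodes δ-tubulin, rose by 0.79. From P14 to P56, 9 of the 32 rose (28.1%) and 8 fell (25%), near the 27.5% and 28.5% of all genes, with Lrrcc1, a distal centriole protein, rising the most (1.95). Of 12 other γ-tubulin ring and augmin genes, 9 were lower at P14 (75%), led by Haus4 (-1.13), and 1 was higher. Of 23 other satellite and BBSome genes, 13 were lower (56.5%), led by Ccdc18 (-1.55), and 3 higher. Of 24 ciliary transport genes 8 were lower (33.3%) and 4 higher (16.7%), so their share of falls was near that of all genes.

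Genes of the nuclear envelope site to which pericentriolar proteins move in heart muscle gave 6 higher (46.2%) and 5 lower (38.5%) of 13 by P14, beside 28.4% and 27.5% of all genes. Akap6, an anchoring protein that tethers pericentriolar proteins to the nuclear envelope in muscle, gave 1740, 1760 and 1670 CPM at P1, 1930, 2030 and 2150 at P14, and 2630, 2720 and 2930 at P56, with no overlap (0.68 by P56, adjusted p = 1.82e-05). Syne2, a nesprin, was lower at each later age (-0.85 by P14 and -2.03 by P56), and Map4, a microtubule-stabilising protein, was higher (1.01 and 1.15).

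**Figure D4:**
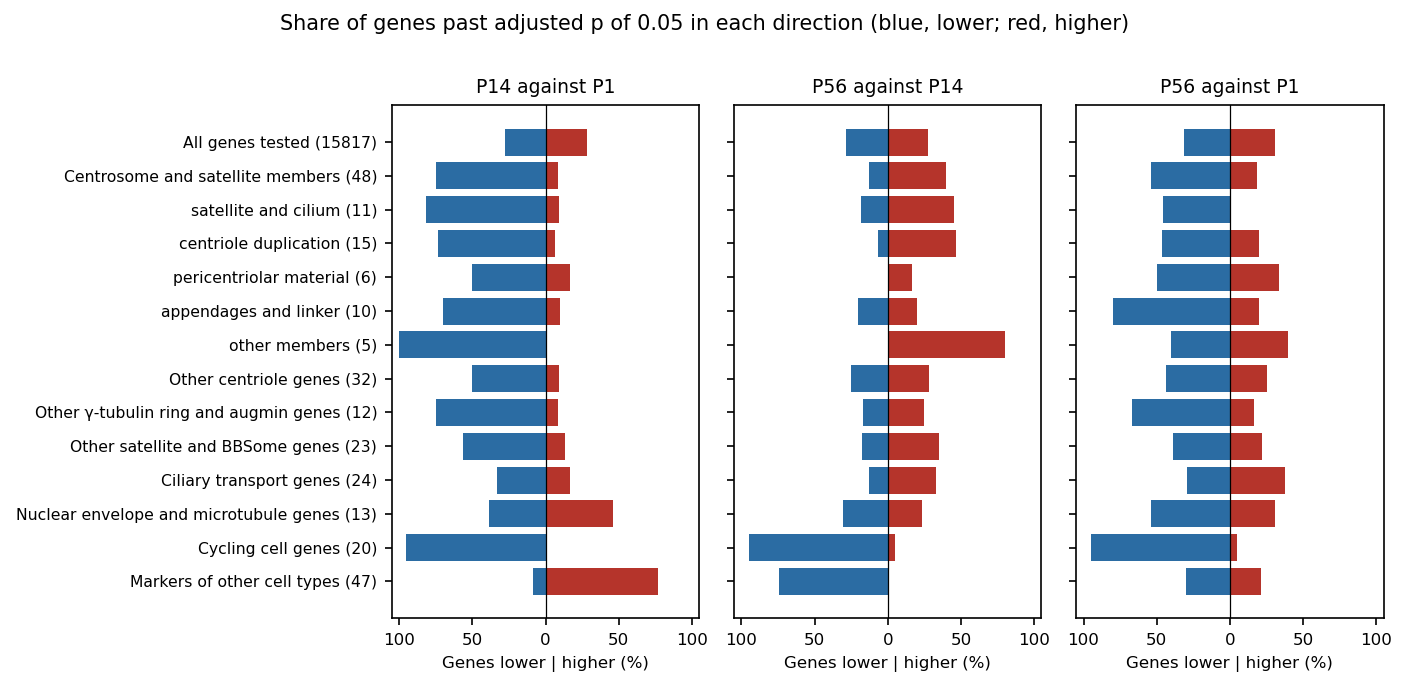
Share of genes (%) called higher (red, to the right) and lower (blue, to the left) at an adjusted p of 0.05, for all genes, the 48 members, their role groups (with the number of genes) and related lists, in the 3 comparisons. Members were lower in 75% at P14 against P1, beside 27.5% of all genes, cycling cell genes were lower in 95%, and markers of other cell types were higher in 76.6%.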

How the data were processed

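Per the labels, RNA of isolated cardiomyocytes was sequenced in 9 libraries, 3 for each of P1, P14 and P56. The authors deposited 1 table of read counts per gene. The submitters' processing notes name GRCm38, STAR 2.4.0g1, featureCounts 1.4.2 and bcl2fastq 2.17.1.14; counting mode and strand are not given in the sources used here. The smallest mean count of a gene was 10. edgeR 4.0.16 (R 4.3.3) was run on the counts with filterByExpr, which removed 7 genes, TMM scaling and 1 glmQLFit model of the 9 libraries with a term for age. The common dispersion was 0.0192. Pairs of libraries of an age differed more than counting error (chi-square per degree of freedom 5.45 to 99.8). Gene lengths and GC content came from a GRCm38 annotation (GENCODE). The members and lists were chosen with earlier results of these data known. Every member could be named, but 1 is counted without being reported by name. Values per library are given for a fixed set and for the largest changes, and from other lists up to 3 genes per direction with the largest change. The test was checked on simulated counts. Alternatives were DESeq2 1.42.0, other scaling and filters, GC offsets, the marker score or replicate number as a term, only the ages compared, and leaving out each library.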

Additional observations from a re-analysis of the deposited data

How the results depend on the processing

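With the marker score as a term, the comparison of P56 with P14 gave 12 members higher and 3 lower, and 2439 genes of all higher and 2306 lower, against 4356 and 4504 without it. A call could be lost there without a smaller change. The rise of Cep19 went from 0.74 to 0.93 and was not called (adjusted p = 0.108). The difference between the intervals then gave 20 members higher, and 2464 genes of all higher and 2590 lower. The P56 against P14 changes of Pcnt (-0.53), Cep68 (-0.10), Cep95 (-0.13) and Nin (0.01) turned sign, as did the interval difference of Cep95 (-0.10), while that of Cep350 was at 0.00. With GC offsets, P56 against P14 gave 12 members higher, and 1 member was below 0 in the interval difference; both counts were the same with GC offsets and the replicate block. Cep85l (-0.24, and -0.23 with the block), Cep83 (-0.27 in both) and Cep164 (0.31 in both) then turned sign, and the interval difference of Cep131 was 0.57. The cause of these shifts was not tested. Leaving out a library gave 2 to 4 members higher and 32 to 36 lower for P14 against P1, 14 to 22 and 6 to 8 for P56 against P14, 8 to 9 and 22 to 26 for P56 against P1, and 27 to 32 and 2 to 4 for the interval difference. The 2 of P14 against P1 came without P1 replicate 1, P1 replicate 3 or P14 replicate 3. The replicate numbers did not pair the libraries throughout. Same-numbered libraries of different ages correlated at -0.219 to 0.493, and others at -0.479 to 0.299. The highest values were those of P14 with P56 for replicate 1 (0.493) and replicate 3 (0.364), while replicate 2 gave 0.00773. The best match was the own number in 7 of 18 cases. With the replicate block the members gave 4 and 36, 19 and 6, and 8 and 25 calls. Depth limits Cep55 most, with 1 to 14 counts per P56 library.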
